A study of Homo sapiens with 12 samples.

Results

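The effect of vemurafenib alone was measured by comparing 3 RNA-seq libraries of vemurafenib-treated A375 cells with 3 libraries of cells given the dimethyl sulfoxide (DMSO) vehicle. These 6 samples were chosen by their labels from a series of 12, whose other 6 samples received tretinoin or both drugs and entered the statistical model. A375 is an established human melanoma cell line that carries an activating BRAF mutation, and all samples came from this line. Exposure lasted 8 h, and a dose of 5 µM is listed for each group, the vehicle included. Polyadenylated RNA was sequenced in bulk, so that fewer cells expressing a gene and less of its RNA per cell cannot be told apart. The labels number the replicates but do not say whether they were separate cultures, so that P values measure the spread between these samples, which may be technical.

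BRAF is a kinase that activates MEK, which activates ERK, and mutant BRAF drives this cascade without a growth factor signal. ERK phosphorylates transcription factors of the ETS and AP-1 families and so induces immediate early genes, cyclin D1, growth factor ligands and a set of proteins that inhibit the cascade in turn. Vemurafenib is an ATP-competitive inhibitor of mutant BRAF that is used to treat melanoma.

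The melanocyte identity of the line was visible only in part. Of 9 lineage markers, CSPG4 (3526 to 7846 counts per library), MCAM, MITF and S100B were detected, whereas PMEL, MLANA and DCT stayed at 23 counts or fewer and SOX10 and TYR at 0 counts in all 6 libraries. The summed level of these markers, in counts scaled to equal library size (CPM), was 630.84 to 699.31 CPM in DMSO and 414.9 to 436.89 in vemurafenib. Of 5 keratinocyte markers, KRT1 was at 0, and the sum was 12.66 to 16.62 CPM in DMSO and 29.44 to 32.15 in vemurafenib. None of 5 fibroblast markers was at 0 in every library, and their sum moved from between 15.27 and 17.63 to between 48.01 and 49.65, through PDGFRB and COL1A1 for the most part. The markers at 0 in all 6 libraries were thus SOX10, TYR and KRT1. Sums for 4 endothelial and 5 leukocyte markers lay between 3.75 and 7.7 CPM in all 6 libraries, although single members moved in opposite directions. Mean levels went from 4.56 to 0.137 CPM for CDH5, from 0.959 to 3.76 for TEK, from 0.482 to 2.08 for VWF and from 1.11 to 2.80 for PTPRC. The part of other cell types in the results was not tested.

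Total counts ran from 15834808 to 20417536 per library. Correlations of log-scale levels were at least 0.9925 within a group and 0.9365 to 0.9448 between the groups. Of 16740 genes with enough counts to test, 4411 were higher (26.4%) and 4400 lower (26.3%) in vemurafenib by edgeR's quasi-likelihood test at a Benjamini-Hochberg adjusted P under 0.05. Among these calls, 47.95% were of genes that changed by less than 1.5-fold. Counts of list members below stand against the shares of all genes, 26.4% higher and 26.3% lower. These shares varied with expression level. Of protein-coding genes in the lowest class of level, 38.2% were higher and 9.7% lower, against 12.1% and 49.0% in the highest class. Level was not held equal between a list and all genes. A test against a 2-fold change (edgeR's glmTreat) called 502 genes more than 2-fold higher (3.0%) and 363 more than 2-fold lower (2.17%). Levels below are normalized counts, that is counts adjusted for library size and composition by the TMM method, and changes are log2 fold changes of vemurafenib over DMSO ± SE with 3 libraries per group. TMM assumes that most genes keep their share of RNA. Scaling by total counts alone moved the median log2 fold change of all genes from 0.02 to 0.21 and the share of higher genes among those called from 50.1% to 71.4%, so that small changes are relative to this shift.

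**Figure D1:**
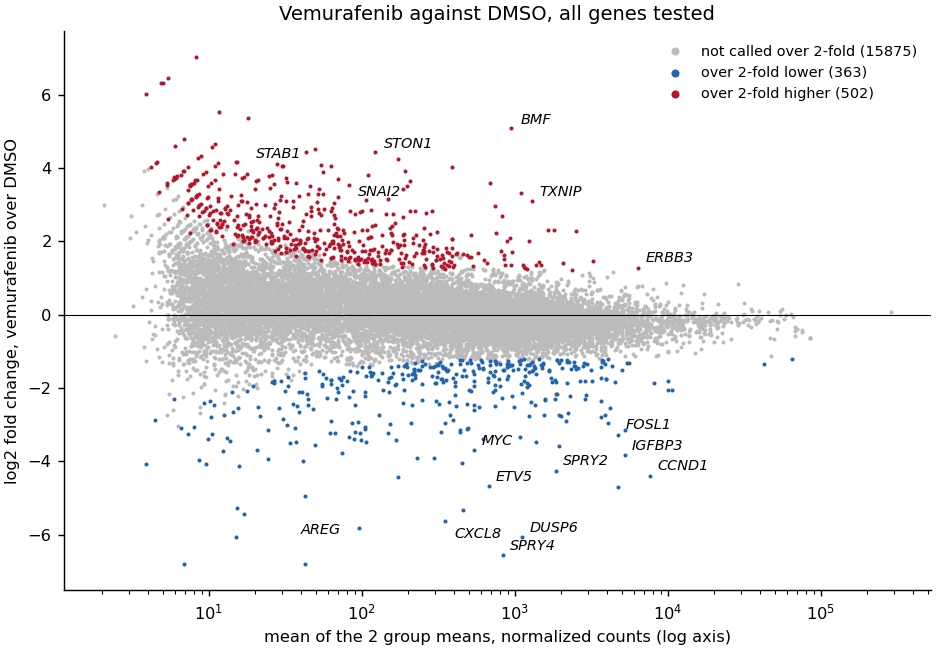
Log2 fold change of vemurafenib over DMSO (y axis) against the mean of both group means in normalized counts (log x axis) for 16740 genes. The 363 genes called more than 2-fold lower (blue) reach high levels, as for CCND1 and FOSL1, whereas many of the 502 called more than 2-fold higher (red) lie at low levels.

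Proteins that restrain the ERK cascade gave several of the largest falls. The list held 18 genes, the dual-specificity phosphatases (DUSPs), which dephosphorylate MAP kinases, and the Sprouty, SPRED and related proteins, which block signal upstream. Of these, 14 were lower, 2 higher and 2 not called, with a median of −1.97 against 0.02 for all genes, and 13 fell by more than 2-fold. SPRY4 (ENSG00000187678.8, GRCh38 chr5:142310427-142326455, minus strand) had 1663.0, 1613.7 and 1692.5 normalized counts in the DMSO libraries and 16.9, 18.3 and 17.4 in the vemurafenib libraries. The groups lay far apart, and SPRY4 fell by 6.55 ± 0.16 on the log2 scale (93.8-fold, adjusted P = 2.29e-15 by edgeR). DUSP6, the phosphatase specific for ERK, had 2293.0, 2098.3 and 2205.6 in DMSO and 25.3, 34.8 and 38 in vemurafenib. Its log2 fold change was −6.07 ± 0.13, although 1875 of its 4632 exon bases overlap another annotated gene, where fragments count for neither. SPRY2, at 3388.5 to 3624.1 in DMSO, fell to between 148.7 and 209.6 (−4.26 ± 0.12).

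The other members that fell did so over a wide range. SPRY1 changed by −3.41 ± 0.18, DUSP5, a nuclear ERK phosphatase, by −3.10 ± 0.19, and DUSP2 by −2.99 ± 0.19. ERRFI1, an inhibitor of the EGF receptor, fell from a mean of 6353 ± 465 (SD) to 916 ± 17 normalized counts. DUSP4 had 6226.8, 7366.6 and 6640.5 in DMSO and 933.9, 1055.4 and 1044.6 in vemurafenib, a change of −2.74 ± 0.08. SPRED3, SPRED2 and SPRED1, which block activation of RAS and RAF, changed by −2.0, −1.94 and −1.30, and DUSP1, DUSP7 and DUSP9 by −1.50, −1.42 and −0.81. In contrast, DUSP16 (+0.55 ± 0.10) and SPRY3 (+1.07 ± 0.32, 14 to 31 normalized counts) rose, and DUSP8 and DUSP10 were not called. Per length of exon, ERRFI1 (84.0 FPKM), SPRY2 (63.9) and DUSP4 (51.4) stood highest of the members named here in DMSO, and all were below 13 FPKM in vemurafenib.

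From the 15 genes with the largest falls and the feedback list, 25 with a promoter in the RefSeq table (GRCh38.p14) were searched. These may not include every member with a promoter there. The search covered the 250 bases before the start, on either strand. Of the 25, 9 held letters of an ETS (CCGGAAG), AP-1 (TGANTCA), cyclic AMP response (CRE, TGACGTCA) or CArG motif. The 4 with the largest falls are shown because the factors that bind such letters are ERK substrates or targets. They are printed 5′ to 3′ on the gene's strand, with the match in capitals.
AREG, chr4:74444886-74445135, plus strand, CRE 65 to 58 bases before the start: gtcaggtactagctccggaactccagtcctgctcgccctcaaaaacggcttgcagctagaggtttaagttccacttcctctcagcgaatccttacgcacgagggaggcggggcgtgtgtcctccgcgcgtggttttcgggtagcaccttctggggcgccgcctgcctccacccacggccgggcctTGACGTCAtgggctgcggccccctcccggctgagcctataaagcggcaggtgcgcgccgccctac
CXCL8, chr4:73740319-73740568, plus strand, AP-1 137 to 131 bases before the start: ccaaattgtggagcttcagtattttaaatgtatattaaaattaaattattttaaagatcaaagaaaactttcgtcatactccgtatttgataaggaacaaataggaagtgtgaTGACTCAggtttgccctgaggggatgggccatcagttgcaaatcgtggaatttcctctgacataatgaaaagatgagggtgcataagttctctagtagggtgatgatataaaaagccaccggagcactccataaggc
CXCL1, chr4:73869143-73869392, plus strand, ETS letters on the other strand 109 to 103 bases before the start: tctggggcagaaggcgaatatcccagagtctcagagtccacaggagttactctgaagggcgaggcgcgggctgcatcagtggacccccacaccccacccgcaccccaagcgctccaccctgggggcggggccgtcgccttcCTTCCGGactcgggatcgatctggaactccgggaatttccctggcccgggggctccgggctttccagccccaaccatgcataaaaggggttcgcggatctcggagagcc
FST, chr5:53480379-53480628, plus strand, AP-1 160 to 154 bases before the start: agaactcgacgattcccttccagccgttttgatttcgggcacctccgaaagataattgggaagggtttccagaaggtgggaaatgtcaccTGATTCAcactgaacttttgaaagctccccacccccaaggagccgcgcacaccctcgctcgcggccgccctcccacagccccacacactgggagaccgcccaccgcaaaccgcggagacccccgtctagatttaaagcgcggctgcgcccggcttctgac
Of all 27305 promoters in the table, 6.6% held the AP-1 letters, 8.8% the ETS letters, 1.8% the CRE and 1.1% the CArG box. Among the tested genes, of which 11167 of 16704 symbols had a promoter in the table, these shares were 4.1%, 15.3%, 2.7% and 1.0%. Of the 363 genes more than 2-fold lower, 256 had a promoter in the table, and with under 80% matched a check of motif shares over either set is void. Of those 256, 21 held the AP-1 letters (8.2%), 8 the ETS letters (3.1%) and 11 the CRE (4.3%). Among the 16 feedback genes with a promoter, 1 held the AP-1 letters (SPRED3), 2 the CRE (DUSP1 and DUSP8) and none the ETS letters or the CArG box. A match is a string of letters and was not tested for binding.

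Transcription factors downstream of ERK fell with the feedback genes. Of 18 ETS-family genes, 10 were lower, 3 higher and 5 not called, with a median of −0.30 that was −0.11 under total-count scaling. ETV5 had 1284.5, 1381.8 and 1213.9 normalized counts in DMSO and 49.7, 53 and 48.9 in vemurafenib (−4.67 ± 0.14, adjusted P = 1.76e-14 by edgeR). The other PEA3-group factors followed, ETV4 by −2.76 ± 0.08 and ETV1 by −1.68 ± 0.11. ELK3 changed by −1.80 ± 0.09. Against this direction, ELF1 rose from 438 to 998 (+1.19 ± 0.08), and the epithelial factor ELF3 rose from 0.0 to 2.4 normalized counts in DMSO to between 28.7 and 39.4.

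Among 15 AP-1 genes, 9 were lower, 3 higher and 3 not called (median −0.81). FOSL1, a FOS-family partner that ERK stabilizes, had 7833.9, 8267.4 and 9509.7 in DMSO and 838.1, 850.3 and 971.8 in vemurafenib, a 9.64-fold fall (−3.27 ± 0.09). MAFF fell from a mean of 846 to 51.4 (−4.04 ± 0.15). FOS and FOSB changed by −1.95 and −1.72, JUNB by −0.86 and JUN by −0.37. Those that rose included MAF (+0.57) and ATF3 (+0.32). The number higher was 1 without DMSO replicate 1 or without vemurafenib replicate 2.

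Immediate early genes, which serum or growth factors switch on within minutes without new protein, were mostly lower. Of 29 tested, 22 were lower, 4 higher and 3 not called, with a median of −1.11. EGR1, the zinc finger factor induced through serum response factor, had 150.2, 151.4 and 158.3 in DMSO and 28.2, 26.1 and 29.3 in vemurafenib (−2.46 ± 0.18). IER3 changed by −3.47 ± 0.08, PHLDA1 by −2.17 ± 0.08, ZFP36L2 by −2.19 ± 0.08 and KLF4 by −1.72 ± 0.10. The 4 that rose were ID1 (+0.32), ID2 (+2.17) and ID3 (+1.21), which encode inhibitors of basic helix-loop-helix factors, and the antiproliferative gene BTG2 (+0.99). Of 13 Kruppel-like factors, some shared with that list, 6 were lower and 4 higher, with KLF13 at +1.36 ± 0.12. The number higher was 2 without DMSO replicate 2 or 3, or without vemurafenib replicate 2 or 3.

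**Figure D2:**
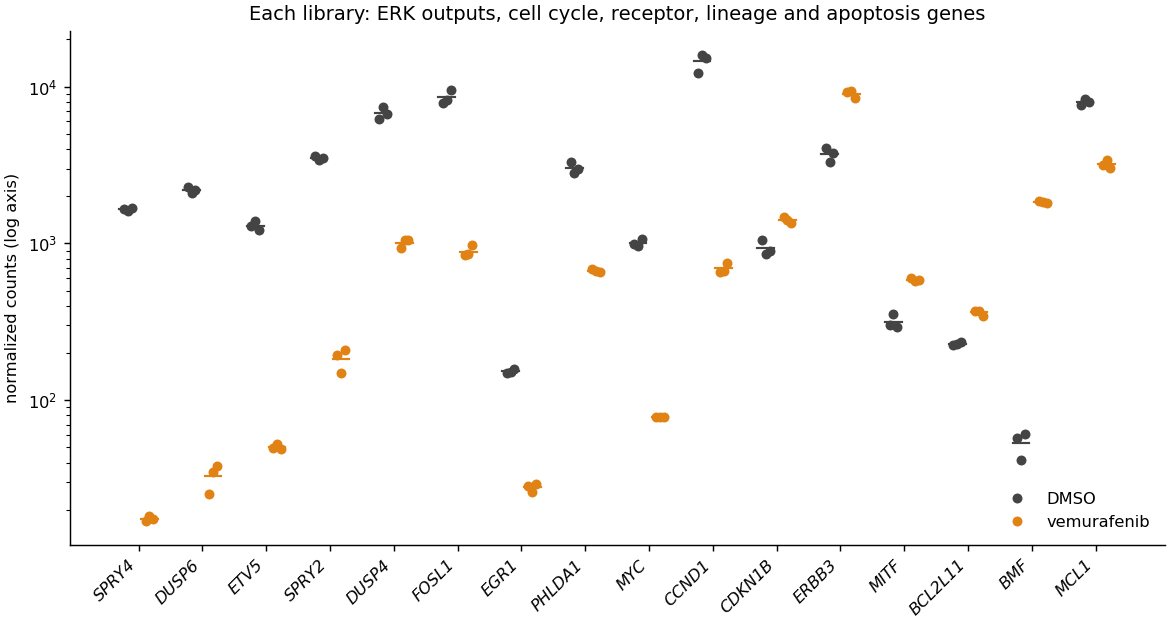
Normalized counts (log y axis) in each of 3 DMSO (grey) and 3 vemurafenib (orange) libraries, with bars at the group means. SPRY4, DUSP6, ETV5, SPRY2, DUSP4, FOSL1, EGR1, PHLDA1, MYC, CCND1 and MCL1 lay lower, and CDKN1B, ERBB3, MITF, BCL2L11 and BMF higher, in each vemurafenib library than in any DMSO library.

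Secreted ligands fell sharply. Of 7 EGF-family ligands tested, 5 were lower and 1 higher. AREG had 149.1, 218.5 and 196.4 normalized counts in DMSO and 1.9, 2.6 and 5.4 in vemurafenib (−5.83 ± 0.32). TGFA, another EGF receptor ligand, fell 6.66-fold from between 3306.1 and 3502.4 to between 459.3 and 543.4. HBEGF changed by −1.79 ± 0.13, while EGF itself rose (+1.23 ± 0.23) from 19 to 45. Of 14 cytokines and angiogenic factors, 11 were lower and none higher, with a median of −2.30. No member had a positive log2 fold change, so that the count of higher members was also 0 at an unadjusted P under 0.05 by edgeR, and it was 0 by DESeq2. The neutrophil chemokine CXCL8 fell from 638.2, 747.0 and 679.9 to 14.1, 13.9 and 13, 49.8-fold. CXCL1 fell 39.9-fold. ESM1, an endothelial proteoglycan, changed from between 67.5 and 92.5 to between 0.0 and 1.1, ANGPTL4 by −4.43 ± 0.24, and the IL-6-family cytokines LIF and IL11 by −3.40 ± 0.10 and −2.38 ± 0.12. VEGFA was not called (−0.04 ± 0.07).

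Receptor tyrosine kinases moved in both directions. Of 26, 13 were lower, 7 higher and 6 not called, with a median of −0.18 that turned to 0.01 under total-count scaling. EPHA2, the ephrin receptor, had 8157.6, 10108.2 and 10100.9 in DMSO and 1018.3, 1127.6 and 1092.3 in vemurafenib (−3.13 ± 0.09). ROR1 and KDR changed by −2.23 and −2.11, EGFR by −0.83 ± 0.12, MET by −0.67 ± 0.10 and AXL by −0.38 ± 0.09. ERBB3, the neuregulin receptor, had 4037.5, 3316.5 and 3763.6 in DMSO and 9229.7, 9361.6 and 8486.7 in vemurafenib, 2.44-fold higher (adjusted P = 9.88e-10 by edgeR). Its partner ERBB2 rose by 0.98 ± 0.07. PDGFRB rose 3.21-fold, from between 177.0 and 214.5 to between 618.9 and 646.7, beside the higher fibroblast marker sum given above, to which it belongs. DDR2 rose by 1.0 ± 0.09.

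The kinases and adaptors of the cascade itself changed little. Of 24 genes, 7 were lower and 6 higher, none by more than 2-fold in the test against that size, and the range was −0.75 (RPS6KA3) to 0.85 (SOS1). These shares, 29.2% lower and 25.0% higher, were near those of all genes (26.3% and 26.4%). BRAF had 317.9, 308.8 and 313.7 normalized counts in DMSO and 390.4, 373.8 and 354.0 in vemurafenib (+0.25 ± 0.09, adjusted P = 0.0263 by edgeR). The exchange factors SOS1 and SOS2 rose by 0.85 ± 0.11 and 0.80 ± 0.11. MAP2K1 fell by 0.54 ± 0.08, and MAP2K2 was not called. Under total-count scaling 12 of the 24 were higher and 4 lower.

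Genes that carry cells from G1 into S phase were lower. CCND1, which encodes the cyclin that activates CDK4 and CDK6, had 12258.0, 15997.8 and 15325.4 normalized counts in DMSO and 655.1, 671.2 and 751.4 in vemurafenib, a 21.0-fold fall (−4.39 ± 0.11, adjusted P = 3.00e-15 by edgeR). Of 15 G1 regulators, 8 were lower and 5 higher. CDC25A, the phosphatase that activates CDK2, changed by −1.83 ± 0.08, CCNE1 by −1.19 ± 0.09 and CDK2 by −1.10 ± 0.09. The CDK inhibitors CDKN1C (188 to 845 normalized counts, +2.17 ± 0.12), CDKN2C (+1.09 ± 0.09), CDKN1B (853.2 to 1048.1 against 1346.4 to 1479.1, +0.60 ± 0.08) and CDKN1A (+0.53 ± 0.08) rose, whereas CDKN2D fell by 0.89 ± 0.14. CCND2 also rose, from 14 to 93 (+2.72 ± 0.30).

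Of 13 E2F and pocket protein genes, 8 were lower and 2 higher. E2F1 had 2125.3, 2227.7 and 2152.2 in DMSO and 865.3, 869.4 and 858.9 in vemurafenib (−1.33 ± 0.07). RBL2, the pocket protein of resting cells, rose by 0.30 ± 0.09. Of 49 DNA replication genes, 38 were lower, 11 not called and none higher (median −0.51). The share lower was 77.6% against 26.3% of all genes, with level not held equal. At an unadjusted P under 0.05, 2 were higher by edgeR (TIMELESS and ORC3), and DESeq2 called 0. The edgeR fit to the 6 samples alone called 1 member higher, a minimum of 10 counts in every sample 2, and total-count scaling 4. All 6 subunits of the MCM helicase, which unwinds origins, fell, by between 0.46 (MCM5) and 0.71 (MCM4). UHRF1 (−1.30 ± 0.09), MCM10 (−1.22 ± 0.07), DSCC1 (−1.19 ± 0.08) and the licensing factor CDC6 (−1.03 ± 0.06) fell more. Of 42 replication genes with a promoter in the table, 33.3% held the E2F letters TTCCCGC, on either strand. The share was 5.6% for all promoters, 8.7% for tested genes and 7.0% for genes more than 2-fold lower. The sets of tested genes and of genes more than 2-fold lower were incompletely matched, so that these shares are a description. Control by E2F was not tested. Nucleotide synthesis followed, with 18 of 26 genes lower and 1 higher, including ADSL (−1.14 ± 0.14), PPAT (−1.02 ± 0.07) and RRM2 (−1.02 ± 0.07).

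Mitotic genes had no common direction. Of 43, 17 were lower, 12 higher and 14 not called, with a median of −0.09 and a range of −0.70 (MAD2L1) to 0.61 (HMMR). The share higher, 27.9%, was near that of all genes (26.4%), and the share lower was 39.5% against 26.3%. CDC20 and ECT2 fell by 0.60 ± 0.07 and 0.53 ± 0.08, while CENPF and KIF20A rose by 0.48 ± 0.09 and 0.42 ± 0.08. Under total-count scaling the median turned to 0.11 and 5 were lower.

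MYC, a transcription factor of growth genes, had 996.8, 963.1 and 1068.0 normalized counts in DMSO and 77.9, 78.2 and 78.2 in vemurafenib. This was a 12.9-fold fall (−3.69 ± 0.09, adjusted P = 4.05e-15 by edgeR). Its partner MAX fell by 0.57 ± 0.07 and MLX by 0.94 ± 0.07. The antagonists MXD4 (642 to 1633, +1.35 ± 0.07) and MXD3 (+1.46 ± 0.13, with 2084 of 5154 exon bases shared with PRELID1) rose. The list as a whole had no common direction. Of 11 MYC network genes tested, 3 were lower, 3 higher and 5 not called, with a median of −0.05. The shares called, 27.3% each, were near those of all genes (26.3% lower and 26.4% higher).

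Ribosome biogenesis had the highest share of lower genes among the 34 lists (95.7%). Of 69 genes for ribosomal RNA transcription, processing and subunit assembly, 66 were lower, 3 not called and none higher, with a median of −0.76 and a range of −1.41 to 0.10. LYAR, NOP16 and PNO1 changed by −1.41 ± 0.15, −1.31 ± 0.13 and −1.31 ± 0.08. DKC1, the pseudouridine synthase, had 7897.9, 9211.0 and 8032.7 in DMSO and 3650.0, 3794.0 and 4095.7 in vemurafenib. NPM1, an abundant nucleolar protein, fell by 0.40 ± 0.11. None was higher at an unadjusted P under 0.05 by edgeR, and 0 were called by DESeq2, while total-count scaling in edgeR called 1 higher. Of 58 with a promoter in the table, 34.5% held the ETS letters. The share was 8.8% for all promoters, 15.3% for tested genes and 3.1% for genes more than 2-fold lower. The sets of tested genes and of genes more than 2-fold lower were incompletely matched, so that these shares are a description. Control by ETS factors was not tested.

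The 78 ribosomal protein genes changed far less. Their median was −0.14, which turned to 0.05 under total-count scaling, and 7 were called lower and 0 higher by edgeR (also 0 higher at an unadjusted P under 0.05 and by DESeq2), among them RPL26 (−0.34 ± 0.12), RPS26 (−0.33 ± 0.10) and RPL23A (−0.29 ± 0.11). This count was not stable. The fit to the 6 samples alone called 33 lower and the fit with no count filter 24, against 0 without DMSO replicate 2, 3 without vemurafenib replicate 1 and 1 without vemurafenib replicate 2. Under total-count scaling 6 were higher and 0 lower. Of 20 tRNA synthetases, 8 were lower, led by FARSA (−0.76 ± 0.08), and 8 higher, led by AARS (+0.79 ± 0.07). The number higher dropped to 3 without DMSO replicate 1, and to 5 without DMSO replicate 3 or without vemurafenib replicate 2 or 3.

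Of 25 glycolysis genes, 17 were lower and 1 higher (PFKFB2, +0.84 ± 0.11). The glucose transporter SLC2A3 fell by 1.76 ± 0.13, hexokinase HK2 by 1.38 ± 0.07 and PFKFB3 by 0.99 ± 0.07. Abundant enzymes fell by less, as for LDHA (−0.55 ± 0.07), PKM (−0.44 ± 0.08) and ENO1 (−0.39 ± 0.08), and under total-count scaling 5 members were higher. Of 31 sterol and fatty acid genes, 9 were lower and 9 higher. SREBF1, a regulator of lipid synthesis, rose by 0.89 ± 0.07.

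All 13 protein-coding genes of the mitochondrial genome were higher, by between 0.43 (MT-ND3) and 0.85 (MT-CO2), with a median of 0.60. The share of counts from the mitochondrial genome was 0.592% to 0.689% in the DMSO libraries and 1.089% to 1.11% in the vemurafenib libraries, and 0.957% to 1.861% in the other 6. This share can also move with RNA quality, whose part was not tested.

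Stress and catabolic genes rose in part. Of 25 ATF4-response genes, which act in amino acid synthesis and stress, 13 were higher and 6 lower. NUPR1 rose by 2.46 ± 0.22 (24.5 to 53.7 against 191.5 to 234.5), VLDLR by 1.59 ± 0.11 and ALDH1L2 by 1.26 ± 0.11, while STC2 and TRIB3 fell by 1.11 ± 0.11 and 0.52 ± 0.08. ATF4 itself rose by 0.29 ± 0.07. Of 35 lysosome and autophagy genes, 17 were higher and 5 lower, including ULK1, the kinase that starts autophagy (+1.07 ± 0.08), GABARAPL1 (+0.89 ± 0.10), WIPI1 (+0.83 ± 0.14) and TFEB (+0.80 ± 0.21).

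Genes of the PI3K and FOXO pathway, where FOXO factors are active when AKT is not, gave 11 higher and 5 lower of 29. TXNIP, an inhibitor of glucose uptake, had 270.2, 246.6 and 293.7 normalized counts in DMSO and 2337.0, 2385.6 and 2229.2 in vemurafenib, 8.55-fold higher. SESN3 rose 6.35-fold from between 46.6 and 52.4 to between 271.5 and 365.1, FOXO3 by 1.10 ± 0.09 and SESN1 by 0.99 ± 0.09. PIK3CD and the insulin receptor substrate IRS1 fell by 1.15 ± 0.10 and 1.08 ± 0.11.

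Regulators of apoptosis shifted on both sides. BMF, a BH3-only protein that binds and inhibits BCL2 proteins, had 57.1, 41.5 and 61.0 in DMSO and 1860.2, 1831.8 and 1822.0 in vemurafenib. It was 34.1-fold higher (adjusted P = 6.96e-16 by edgeR). This was the largest rise among called genes with at least 100 normalized counts, groups apart and a symbol other than a clone name. Of its exon bases, 461 overlap its antisense gene. Among 11 pro-apoptotic members, 5 were higher (45.5%) and 3 lower (27.3%), the latter near the 26.3% of all genes. BCL2L11, which encodes BIM and whose protein ERK destabilizes, rose 1.59-fold (223.6 to 233.6 against 344.2 to 373.5). HRK and BBC3 rose by 1.42 ± 0.19 and 0.92 ± 0.12. PMAIP1, which encodes NOXA, fell by 1.68 ± 0.09. Of 9 anti-apoptotic genes, 6 were lower and 1 higher (CFLAR, +0.65 ± 0.10). MCL1 had 7618.4, 8322.4 and 7933.5 in DMSO and 3167.6, 3426.3 and 3044.6 in vemurafenib (−1.31 ± 0.07), and BIRC3 changed by −1.60 ± 0.18. Of 23 targets of p53, 14 were higher, led by TP53INP1 (+2.83 ± 0.23), and 7 lower, led by PLK3 (−2.33 ± 0.16) and AEN (−1.87 ± 0.07), while MDM2 was not called (+0.07 ± 0.09).

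Lineage genes that could be tested were more often higher than lower. Of 22 melanocyte genes, 10 did not pass the count filter, 6 were higher, 1 lower and 5 not called. MITF, the master regulator of the lineage, had 303.9, 356.4 and 292.7 normalized counts in DMSO and 597.9, 572.1 and 585.3 in vemurafenib, 1.85-fold higher (adjusted P = 1.25e-06 by edgeR). TYRP1, a pigment enzyme, rose by 2.32 ± 0.32 from 7.4 to 37.2, and GPNMB by 0.93 ± 0.07. RXRG fell by 1.17 ± 0.29, and the lineage marker sum given above, most of it from CSPG4 and MCAM, was lower in vemurafenib. Members that passed the filter only through the group where they are high, such as TYRP1, had to differ.

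Of 19 genes of the mesenchymal or dedifferentiated state, 12 were lower and 2 higher. THBS1 fell from a mean of 61309 to 24026 (−1.35 ± 0.13), SNAI1 by 1.08 ± 0.10, ZEB1 by 0.97 ± 0.10 and NGFR by 0.67 ± 0.09. The exceptions were SNAI2 (13.1 to 150, +3.54 ± 0.20) and ZEB2 (426 to 1008, +1.24 ± 0.10), which are expressed in melanocytes and the neural crest. Targets and factors of YAP and TEAD fell in 14 of 18 cases, led by ANKRD1 (557 to 37.2, −3.90 ± 0.20) and F3 (−3.07 ± 0.23), with YAP1 at −0.30 ± 0.07. Of 19 Wnt and TGF-beta genes, 10 were lower, led by the Wnt antagonist DKK1 (−1.72 ± 0.09), and 3 higher, led by DKK3 (+1.69 ± 0.10). Matrix, protease and integrin genes were lower in 24 of 47 cases and higher in 9. The plasminogen activator PLAT, the urokinase receptor PLAUR and the metalloprotease inhibitor TIMP3 changed by −2.54 ± 0.08, −2.52 ± 0.09 and −2.06 ± 0.09, and COL1A1 rose by 1.30 ± 0.16, also a fibroblast marker.

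Antigen presentation by class I molecules was little changed, with 3 of 17 genes higher, 1 lower (TAP2, −0.57 ± 0.10) and 13 not called. Without DMSO replicate 2, 1 was higher. Interferon-stimulated genes were higher in 20 of 36 cases and lower in 4. IFIT1 rose by 2.23 ± 0.18 (27 to 126), RSAD2 by 3.06 ± 0.51 (4 to 32) and STAT2 by 1.22 ± 0.09, while IRF1 and ISG20 fell by 1.07 ± 0.08 and 1.02 ± 0.15.

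**Figure D3:**
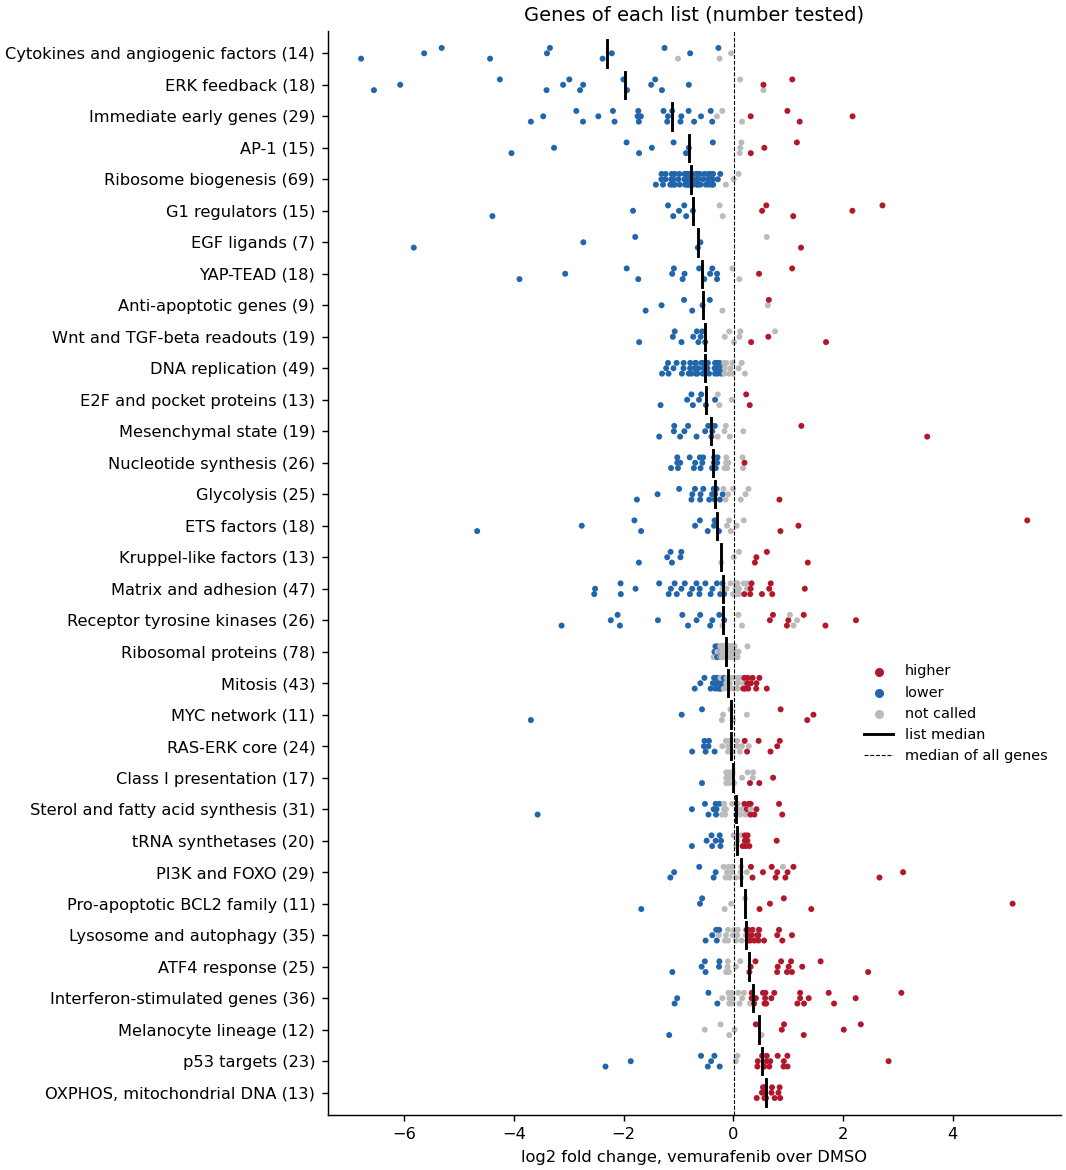
Log2 fold change of vemurafenib over DMSO (x axis) for each tested gene of the 34 lists, ordered by list median (black bars), with the median of all genes as a dashed line. Red and blue points are genes called higher and lower, grey points genes not called. The feedback, cytokine and immediate early lists lie farthest to the left, and the mitochondrial genome farthest to the right.

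The remaining genes with the largest falls were FST, the activin antagonist (323.4 to 406.1 against 7676.7 to 10299.8 in DMSO, −4.69 ± 0.11), FOXC2 (−3.91 ± 0.16), IGFBP3, the main binding protein for insulin-like growth factors (−3.83 ± 0.09), and TRABD2B (−3.78 ± 0.23). Among the largest rises after BMF, STON1 went from 9.3, 11 and 11.4 to 252.5, 230.4 and 219.3, with 2244 of its exon bases shared with a read-through gene. MAP1LC3C, an autophagy protein of the LC3 family, rose from 44.7 ± 4.3 to 735 ± 29 (SD), and FOXD3, a neural crest transcription factor, from 105 ± 17 to 1274 ± 79. SAMD11 (+4.25 ± 0.24), STAB1 (+4.08 ± 0.44), MATN2 (+4.07 ± 0.26), CD24 (+3.92 ± 0.19), HIST1H1B (+3.89 ± 0.50), WNT6 (+3.82 ± 0.24), SOWAHA (+3.70 ± 0.23), FAM198B (+3.65 ± 0.19), PRELP (+3.50 ± 0.17) and NINL (+3.42 ± 0.20) completed the 15. The mean level in DMSO was 5.9 to 105.3 normalized counts for these 15 and 137.9 to 14527.0 for the 15 with the largest falls. The rule asks for 100 normalized counts in the higher group, so it sets part of this difference.

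Calls also differed by expression level. Among 13563 protein-coding genes divided into 4 classes of equal size by their mean level in all 12 libraries, the share called higher went from 38.2% in the lowest class through 34.9% and 23.0% to 12.1% in the highest. The share called lower went from 9.7% through 24.4% and 36.4% to 49.0%. Long non-coding RNAs were more often higher than lower, with 32.8% higher and 11% lower of 752 lincRNAs and 29.7% and 7.0% of 654 antisense genes. Of 1280 pseudogenes, 14.5% were higher and 13.3% lower. The median was 0.448 for lincRNAs and 0.45 for antisense genes, against 0.464 for the lowest class of protein-coding genes. Level was not held equal between gene types, and its part in this excess was not tested. Counting ignored the strand, so reads of an antisense gene and its partner cannot be told apart.

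**Figure D4:**
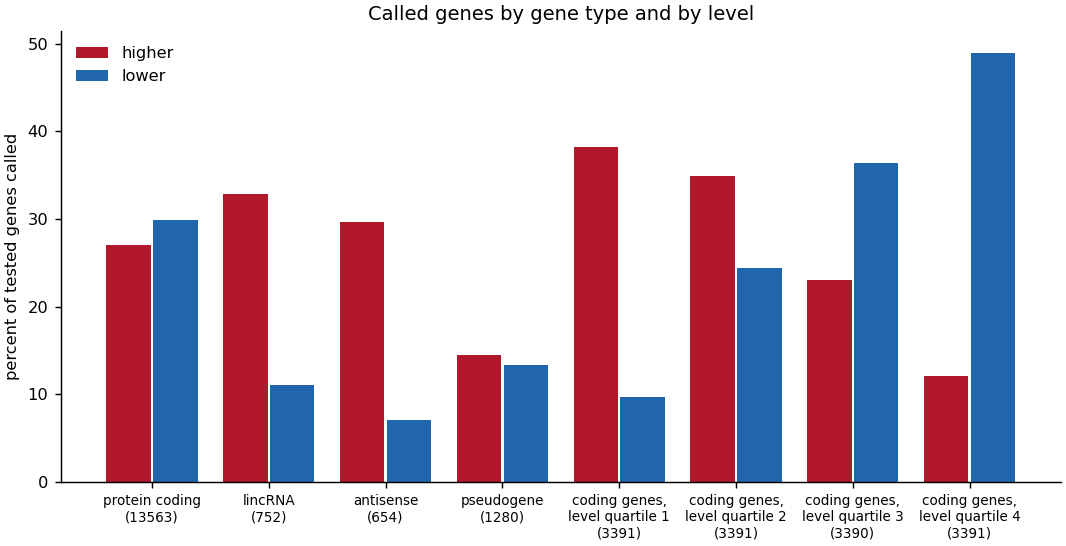
Percent of tested genes called higher (red) and lower (blue) in vemurafenib, by gene type and, for protein-coding genes, by class of the mean level (1 lowest, 4 highest), with the number of genes in parentheses. The share called lower climbs from 9.7% to 49.0% with level, and the share called higher drops from 38.2% to 12.1%.

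The combination against tretinoin alone gave another measurement of vemurafenib in samples that the comparison with DMSO does not contain. It called 4026 of all 16740 genes higher and 4191 lower. Of the 363 genes more than 2-fold lower with vemurafenib alone, 357 (98.3%) were also called lower there, and of the 502 more than 2-fold higher, 442 (88%) were called higher. SPRY4, DUSP6 and BMF changed by −6.30 ± 0.15, −6.06 ± 0.13 and +5.23 ± 0.10 in that comparison. Across all called genes, 3055 higher (69.3%) and 3335 lower (75.8%) were called in the same direction, and 19 in the opposite one. The change in ribosome biogenesis was also seen, with 61 of 69 genes lower. Of 78 ribosomal protein genes, 20 were higher there and 0 lower, a share higher near that of all genes. A test of the difference between both effects called 135 genes (0.806%), of which 120 were called with vemurafenib alone, 95 with a smaller and 25 with a larger change in the presence of tretinoin. This count was not stable, at 60 without DMSO replicate 2, 64 without vemurafenib replicate 2, 71 without vemurafenib replicate 1, 75 with the replicate number as a block, 276 by DESeq2 and 610 with no count filter.

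**Figure D5:**
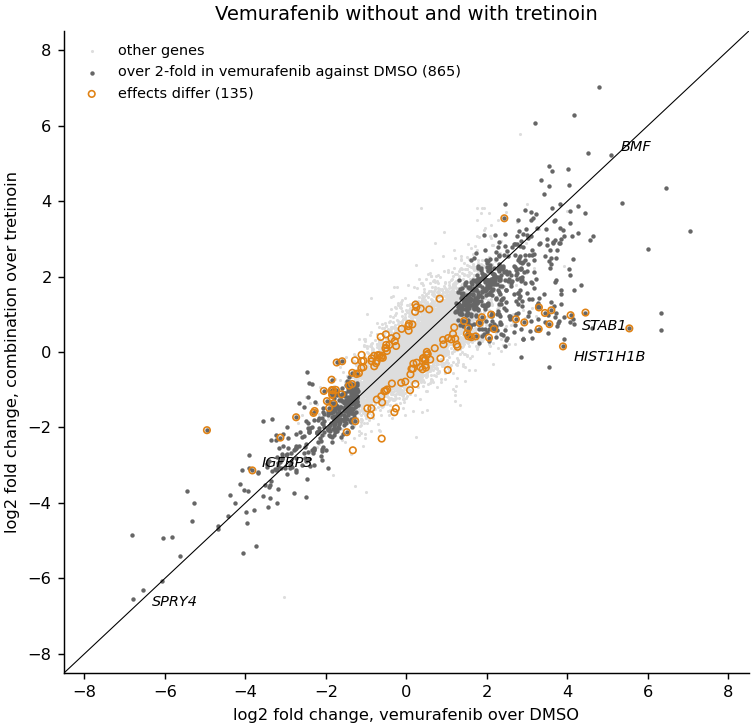
Log2 fold change of the combination over tretinoin (y axis) against that of vemurafenib over DMSO (x axis) for all tested genes, with the line of equal effects. Dark points are the 865 genes changed more than 2-fold without tretinoin, and orange circles the 135 genes whose effects differ. SPRY4 and BMF lie near the line, and STAB1 and HIST1H1B well below it.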

How the data were processed

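Total RNA (200 ng per sample) was enriched for poly(A) RNA by the authors and sequenced as paired 150-base reads. Per the labels and the study's methods, reads were aligned to GRCh38.p10 with STAR 2.5.3a and fragments counted on GENCODE 27 genes in union mode without strand. The authors deposited raw counts per gene for 58347 genes, not normalized. Positions, gene types and exon overlaps came from GENCODE 29 (58084 genes found), so that lengths may differ slightly from those counted. Promoters were RefSeq's (GRCh38.p14). The samples' groups came from their titles.

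With edgeR 4.0.16 under R 4.3.3, low genes were removed by filterByExpr, TMM factors were computed, and 1 quasi-likelihood model with a term per group was fitted to all 12 samples, which share the estimate of the spread. The tests were glmQLFTest, glmTreat against a 2-fold change and the contrast (combination − tretinoin) − (vemurafenib − DMSO), each adjusted by Benjamini-Hochberg at 0.05. An SE is the log2 fold change divided by the square root of F, and FPKM used the union of exons. The number of counts limits the precision of low genes: the SE was 0.53 for ELF3 and 0.07 for MCL1. The code was tested on simulated counts. Replicates differed by more than sampling noise (chi-square per degree of freedom 2.63 to 6.41).

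The samples, the 34 gene lists and the tests were chosen with earlier results of these data known. Named genes were the 15 largest rises and falls (called by both tests, at least 100 normalized counts, groups apart, with a symbol other than a clone name), up to 3 called members per list and direction, and 23 set genes of the pathway. Other list members were named after their values were seen. The table repeats 18 tested genes shared by the X and Y chromosomes, which were kept. Alternatives were DESeq2 1.42.0 with and without a beta prior, its size factors, total counts, 2 other filters and 6 samples. Others were a replicate block, each DMSO or vemurafenib replicate left out in turn and a threshold of 0.01. Figures used Python 3.11.15 and matplotlib 3.10.9. The values of some genes are not reported here.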

Additional observations from a re-analysis of the deposited data

Results flagged for a closer look

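For 12 genes named above, the effect of vemurafenib differed between cells with and without tretinoin by a test of the difference itself, the interaction contrast of edgeR's quasi-likelihood model with Benjamini-Hochberg adjustment over 16740 genes. The difference is the log2 fold change of the combination over tretinoin minus that of vemurafenib over DMSO, with 3 libraries in each of the 4 groups. Why they differ was not tested.

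Genes that fell with vemurafenib alone and fell by less with tretinoin gave positive differences. EPHA2 changed by −3.13 without and −2.27 with tretinoin (difference 0.86, adjusted P = 0.00238). IGFBP3 changed by −3.83 and −3.14 (difference 0.69, adjusted P = 0.00568). IRF1, an interferon-response factor, changed by −1.07 and −0.40 (difference 0.67, adjusted P = 0.00848). STC2, a secreted glycoprotein, changed by −1.11 and −0.25 (difference 0.87, adjusted P = 0.00901). JUNB changed by −0.86 and −0.24 (difference 0.62, adjusted P = 0.0238). JUN had opposite signs, −0.37 and 0.36 (difference 0.74, adjusted P = 0.0427).

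Genes that rose with vemurafenib alone and changed by less with tretinoin gave negative differences, and several had few counts in DMSO. ID2 changed by 2.17 without and 0.61 with tretinoin (difference −1.56, adjusted P = 0.00685). The linker histone gene HIST1H1B changed by 3.89 and 0.15, the latter not called (difference −3.74, adjusted P = 0.00685). Its normalized counts were 2.4 to 9.3 in DMSO and 29.1 to 142.8 in tretinoin. They were 78.2 to 127.6 in vemurafenib and 95.7 to 106.4 in the combination. STAB1, a scavenger receptor, changed by 4.08 and 0.98 (difference −3.10, adjusted P = 0.0115). CCND2 changed by 2.72 and 0.87 (difference −1.85, adjusted P = 0.0368). ELF1 changed by 1.19 and 0.65 (difference −0.54, adjusted P = 0.0395). In tretinoin alone, STAB1 (26.5 to 95.6) and CCND2 (31.8 to 73.5), like HIST1H1B, already lay above DMSO. For these genes the combination overlapped vemurafenib, at 94.9 to 150.1 for STAB1 and 84.8 to 114.3 for CCND2. For ID2 (50.4 to 65.4 against 102.3 to 111.3) and ELF1 (762.6 to 895.8 against 945.7 to 1035.2) the combination lay below vemurafenib. MAF rose by more with tretinoin, 1.13 against 0.57 (difference 0.56, adjusted P = 0.0169).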

How the results depend on the processing

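Under total-count scaling 2628 genes were lower and 778 more than 2-fold higher. The latter count was 321 at an adjusted P under 0.01, 278 with at least 10 counts required in every sample and 278 by DESeq2. Genes whose effect differed with tretinoin numbered 44 at an adjusted P under 0.01, 610 with no count filter and 276 by DESeq2. Leaving out 1 DMSO or vemurafenib replicate gave 60 to 150 such genes. There were 60 without DMSO replicate 2, 71 without vemurafenib replicate 1 and 64 without vemurafenib replicate 2, so that this count depends on single libraries. The tretinoin and combination libraries also enter it, and none of them was left out. Leaving out 1 DMSO or vemurafenib replicate gave 3797 to 4107 genes higher and 3917 to 4219 lower. It gave 378 to 442 more than 2-fold higher and 325 to 343 more than 2-fold lower. With the replicate number as a block, 4212 genes were higher, 4205 lower and 75 differed with tretinoin. Deviations of same-numbered DMSO and vemurafenib samples correlated at −0.047, −0.137 and −0.284, so that no pairing by number was seen between these groups. Such correlations cannot tell whether same-numbered samples shared a culture, and tretinoin and the combination were not checked. Among named genes VEGFA, which was not called, turned positive under total counts (0.155), with at least 10 counts in every sample (0.003) and without vemurafenib replicate 3 (0.012); its values without 1 replicate ran from −0.088 to 0.012. The cause of these changes was not tested. Low counts limit the genes that were near 0 in either group.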

Other observations

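Histone genes formed a group with a common direction that was noticed after the values were seen, so that their counts are a description. Of 58 genes tested whose symbols mark them as members of the histone clusters, 49 were higher in vemurafenib than in DMSO by edgeR, against 26.4% of all genes. The other 9 were not called, and the median log2 fold change of the 58 was 1.61. Their normalized counts summed to 1309, 1350 and 1328 in the DMSO libraries and to 3560, 3049 and 3411 in the vemurafenib libraries. The sums in the tretinoin libraries were spread widely, at 1387, 3081 and 2738, and those of the combination were 4044, 3535 and 3948. Between the combination and tretinoin the median was 0.50 and 15 were higher. Some members had nearly the same counts, so that they are not separate measurements. HIST2H3A and HIST2H3C each had 85.4, 76.5 and 70.6 in vemurafenib. Several members had few counts in DMSO, such as HIST1H4L with a mean of 0.0. Members below the count filter in DMSO passed it only through other groups, so that they could hardly be called lower. The count of 49 is thus not a like comparison with the 26.4% of all genes. Most replication-dependent histone transcripts carry no poly(A) tail, and the libraries were made from poly(A) RNA, so that the counts cover the part of these transcripts that was retained. Whether the share retained differed between libraries was not tested.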
